A study of Rattus norvegicus with 6 samples.

Results

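The enzymes of the TCA cycle, of pyruvate entry into it, of ketone body metabolism and of mitochondrial fatty acid beta-oxidation were compared between 2 early times of granulation tissue formation. Members were 46 listed gene symbols, chosen by function but with earlier results of these data known. Every probe whose platform annotation carried any of them was taken. The symbols stand for 45 genes, since Pcx is an older name of Pc. Of these, 41 genes had a probe (42 probes, 2 of them for Idh2), of 13336 named genes on the array. Pdha1, Suclg2, Fh and Oxct1 had no probe under their symbol and were not analysed here. All 41 genes had a probe that passed the filter on dim signal, which asked for a signal over the median of the array in 3 or more of the 6 arrays.

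Total RNA came from granulation tissue in cellulose implants with a hydroxyapatite coat, placed subcutaneously in Sprague-Dawley rats of 10 weeks. The day 3 group held 3 implants taken at 72 hours (rats 6, 4 and 7) and the day 1 group held 3 implants taken at 24 hours (rats 1, 2 and 3), each from a different rat. All 6 rats carried the same kind of implant, with no unimplanted tissue, other coat or later time among the samples. Signals are log2 values from 1-colour Illumina bead arrays, listed for rats 6, 4 and 7 at day 3 and for rats 1, 2 and 3 at day 1, and a change is day 3 minus day 1. Each probe was tested with limma, two-sided, with p-values adjusted over all 11591 probes tested and a threshold of 0.05. A 95% interval is that of the fitted change. With 3 arrays a day, precision is limited. These p-values rest on the spread between rats, with each probe's variance drawn by limma toward that of all probes.

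In the TCA cycle, acetyl-CoA from pyruvate, fatty acids, ketone bodies and amino acids is oxidised in the mitochondrial matrix, and the electrons pass to the respiratory chain. Fatty acids enter the matrix as carnitine esters and are shortened in repeated rounds of dehydrogenation, hydration, a second dehydrogenation and thiolysis, while unsaturated chains need auxiliary isomerases and a reductase. In wounds, neutrophils are known for reliance on glycolysis, and macrophages of the repair phase for greater use of mitochondrial oxidation.

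Of the 41 members, 9 rose and 2 fell at day 3 (26.8% changed), against 31.9% of all probes tested. The share that rose was 22% of the members, where 16.7% of all probes rose, and the share that fell was 4.88%, where 15.2% of all probes fell. The members that rose were Decr1, Cpt2, Eci1, Acat1, Aco1, Idh2, Hadh, Glud1 and Hadhb, and those that fell were Me1 and Bdh1. Only Decr1, Cpt2 and Eci1 changed at least 2-fold among the members (7.32%), against 13.5% of all probes. An unadjusted p under 0.05 was seen for 15 of the 41 members (36.6%), against 43.5% of all probes. The days did not overlap for 19 of the 41 members (46.3%), against 49.4% of all probes. The median change of the members was 0.26 and that of all probes -0.05, and 29 of 41 members had a positive change. The median absolute change was 0.31 for the members and 0.33 for all probes. In the total share of calls and in the size of change the members as a whole lay near the array at large. Of the 9 higher members, 2, 3 and 2 still passed when day 3 rat 6, 4 or 7 was left out, and 6, 7 and 9 when day 1 rat 1, 2 or 3 was. Of the 2 lower members, only Bdh1 still passed when day 3 rat 6, 4 or 7 or day 1 rat 1 was left out; without day 3 rat 7, Dld passed in addition.

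**Figure D1:**
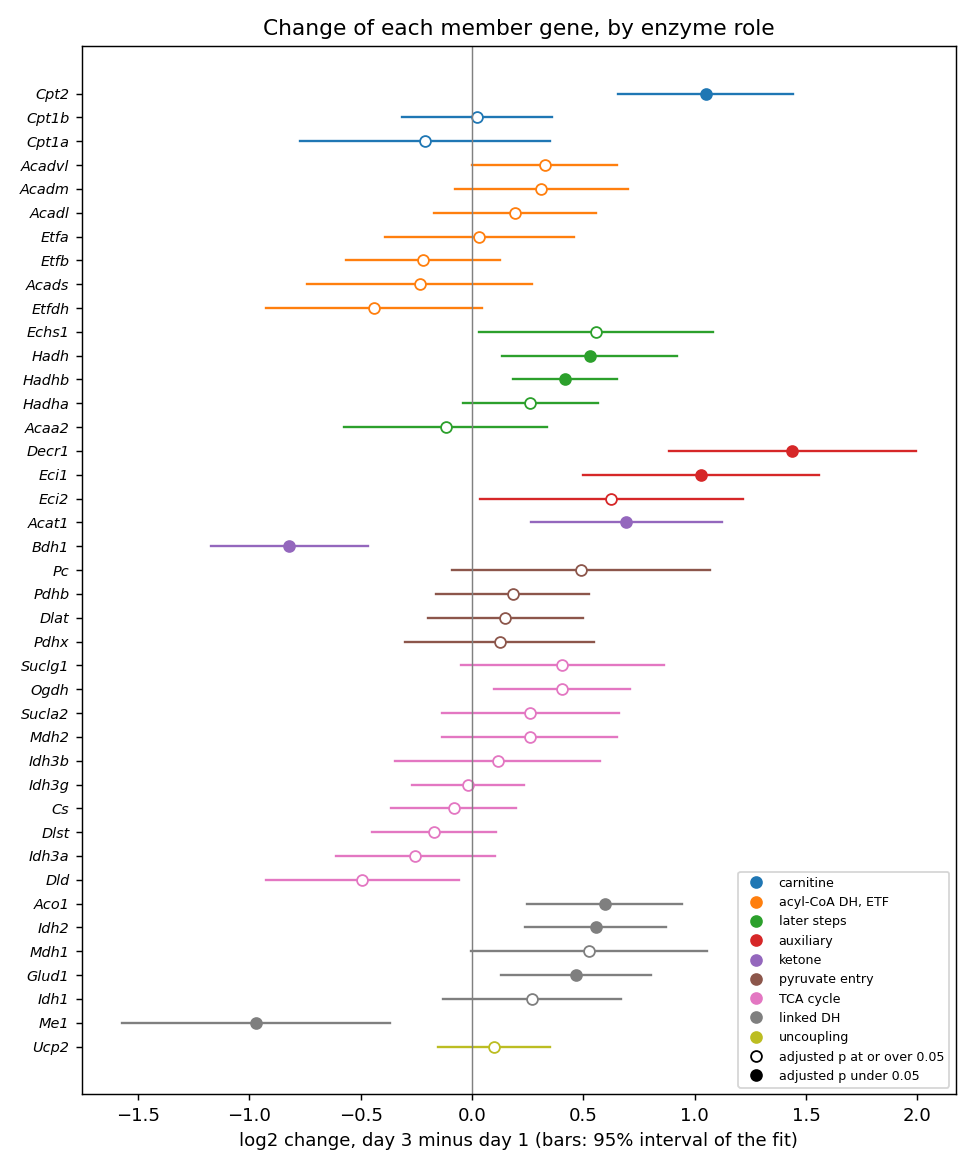
Log2 change (day 3 minus day 1, x axis) of each of the 41 members, coloured by enzyme role, with the 95% interval of the fit; filled points had adjusted p under 0.05. Decr1, Cpt2 and Eci1 lie at or beyond a change of 1.03, Me1 and Bdh1 lie at -0.97 and -0.82, and no point of the TCA cycle, pyruvate entry or acyl-CoA dehydrogenase groups is filled.

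The auxiliary enzymes of unsaturated fatty acids had the highest median change of the role classes, at 1.03, with 2 of 3 higher and none lower. Of all probes, 16.7% rose and 15.2% fell. Decr1, the mitochondrial dienoyl-CoA reductase, had 11.39, 11.51 and 11.64 at day 3, against 10.09, 9.60 and 10.54 at day 1. All day 3 rats lay above all day 1 rats, and day 1 rat 2 was the lowest. Decr1 rose 2.71-fold, a log2 change of 1.44 ± 0.235 (SE; limma adjusted p = 0.00537), and it kept an adjusted p under 0.05 without any 1 rat (highest 0.0277). Eci1, an enoyl-CoA isomerase that moves double bonds into the position the hydratase accepts, had 10.92, 10.36 and 10.91 at day 3, against 9.81, 9.32 and 9.97 at day 1. It rose 2.04-fold, by 1.03 ± 0.224 (SE; limma adjusted p = 0.0142), with no overlap of the days. Without day 3 rat 6 its adjusted p was 0.0585 and without day 3 rat 7 it was 0.0591. Eci2, an isomerase of mitochondria and peroxisomes, had 7.80, 7.82 and 8.33 at day 3, against 7.74, 6.89 and 7.45 at day 1. Its change of 0.63 (95% interval 0.03 to 1.22) did not pass the test over all probes (limma adjusted p = 0.0986), although its days did not overlap.

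Of the 3 carnitine palmitoyltransferases, which carry long fatty acids into mitochondria, 1 rose, where 16.7% of all probes rose. Cpt2, the inner-membrane enzyme that hands the chain back to coenzyme A, had 10.77, 10.48 and 10.42 at day 3, against 9.57, 9.24 and 9.72 at day 1. The groups were apart by more than their whole spread, and Cpt2 averaged 10.56 ± 0.19 at day 3 and 9.51 ± 0.25 at day 1 (SD, n = 3 each). It rose 2.07-fold, by 1.05 ± 0.167 (SE; limma adjusted p = 0.00493), and its highest adjusted p without any 1 rat was 0.0235. Cpt1a, the outer-membrane enzyme at which malonyl-CoA regulates entry, had 10.12, 10.47 and 10.70 at day 3, against 10.64, 11.04 and 10.24 at day 1. The Cpt1a groups overlapped, and the interval of its change, -0.77 to 0.35, holds falls and rises alike (limma adjusted p = 0.535). Cpt1b, the form of muscle, lay near the array median of 6.47 on every array, between 6.21 and 6.64, so a change of this dim signal could hardly show.

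PPAR receptors, estrogen-related receptors, NRF1 and GABP are known regulators of genes of oxidative metabolism, so the promoter windows of the members were searched on both strands for 4 motifs. Of the 41 members, 35 had a window of 300 bases in the RefSeq table (GRCr8), and Decr1 was not among them. The direct repeat bound by PPAR receptors (AGGTCANAGGTCA) and the estrogen-related receptor element (TCAAGGTCA) matched 0 of 35 members, and 0.0583% and 0.412% of 27457 windows. The NRF1 element, searched only as the palindrome GCGCATGCGC, matched 0 of 35, and 0.932% of all windows. Variants of these letters were not counted, such as GCGCACGCGC, which the windows of Etfdh and Dld hold. At shares this low, 0 matches in 35 windows tell little about whether the members carry such elements. The ETS element that GABP can bind (CCGGAAGT) matched 3 of 35 members (8.57%), Cpt2, Mdh2 and Dlst, and 4.01% of all windows. The 27457 windows were 1 for each gene of the RefSeq table, not only for genes on the array, whereas all members were tested genes. No 2 matches overlapped, and a match is a description of letters only. Of these 3 genes, Cpt2 rose, and Mdh2 and Dlst did not pass the test. Their windows are shown with the match in capitals, which begins 74, 242 and 21 bases before the start site, and which Dlst carries on the opposite strand (ACTTCCGG).
Cpt2, chr5:127910769-127911068, minus strand: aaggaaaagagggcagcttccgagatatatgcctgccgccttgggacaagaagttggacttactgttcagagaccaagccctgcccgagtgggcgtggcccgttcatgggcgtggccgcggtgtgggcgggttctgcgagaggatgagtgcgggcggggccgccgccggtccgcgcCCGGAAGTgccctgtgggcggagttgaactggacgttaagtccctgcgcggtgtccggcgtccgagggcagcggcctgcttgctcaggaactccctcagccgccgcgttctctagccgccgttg
Mdh2, chr12:26543792-26544091, minus strand: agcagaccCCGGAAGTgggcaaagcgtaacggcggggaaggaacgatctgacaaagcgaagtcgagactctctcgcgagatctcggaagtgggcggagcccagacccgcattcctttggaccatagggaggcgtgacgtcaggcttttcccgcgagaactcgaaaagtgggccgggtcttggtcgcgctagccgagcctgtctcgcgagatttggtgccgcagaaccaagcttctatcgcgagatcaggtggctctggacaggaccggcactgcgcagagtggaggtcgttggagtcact
Dlst, chr6:110489456-110489755, plus strand: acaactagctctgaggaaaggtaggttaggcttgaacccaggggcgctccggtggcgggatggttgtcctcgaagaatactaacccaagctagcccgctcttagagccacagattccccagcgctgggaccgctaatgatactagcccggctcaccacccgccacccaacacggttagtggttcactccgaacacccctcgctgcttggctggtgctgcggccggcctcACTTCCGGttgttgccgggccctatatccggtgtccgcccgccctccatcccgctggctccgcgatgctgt

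The acyl-CoA dehydrogenases, which open each round of beta-oxidation, and the flavoproteins that take up their electrons held no member that passed the test in limma, of 7. Of all probes, 31.9% passed. An unadjusted p under 0.05 was seen for 0 of the 7, against 43.5% of all probes. Array weights and the fit without day 1 rat 2 called 1, Acadvl. The median change of the 7 was 0.03, and single changes ran between -0.44 (Etfdh) and 0.33 (Acadvl). Acadvl, which acts on very long chains, had 10.60, 10.49 and 10.58 at day 3, against 10.05, 10.47 and 10.18 at day 1. The lowest day 3 value of Acadvl lay just above the highest day 1 value (change 0.33, 95% interval -0.001 to 0.65; limma adjusted p = 0.115). Without day 1 rat 2, Acadvl had a change of 0.45 with adjusted p = 0.0335. It passed in none of the other fits that left out 1 rat (highest limma adjusted p = 0.277). Acadm and Acadl, for medium and long chains, had changes of 0.31 and 0.19, and Acads, for short chains, had -0.24. Etfdh, which passes the electrons on to ubiquinone, had 9.48, 9.70 and 9.61 at day 3, against 9.80, 10.50 and 9.82 at day 1 (change -0.44, interval -0.92 to 0.05). The days of Etfdh did not overlap, and day 1 rat 2 stood far above the other 5 arrays. Etfa and Etfb, the subunits of the electron transfer flavoprotein, had changes of 0.03 and -0.22.

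Among the enzymes of the later steps of each round, 2 of 5 rose and 0 fell (median change 0.42, all probes -0.05). Of all probes, 16.7% rose and 15.2% fell. Hadhb, the thiolase subunit of the mitochondrial trifunctional protein, had 12.03, 12.05 and 12.10 at day 3, against 11.63, 11.64 and 11.64 at day 1. Values within each day were close together, and Hadhb rose 1.34-fold, by 0.42 ± 0.099 (SE; limma adjusted p = 0.0191). Leaving out day 3 rat 6, 4 or 7 or day 1 rat 1 gave adjusted p = 0.0571, 0.0721, 0.0785 or 0.0577. Hadha, the subunit with the hydratase and dehydrogenase activities, had 9.69, 9.40 and 9.51 at day 3, against 9.29, 9.14 and 9.38 at day 1. The Hadha days did not overlap, but its change of 0.26 (95% interval -0.04 to 0.57) did not pass the test (limma adjusted p = 0.161).

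Hadha and Hadhb are printed because they encode both subunits of 1 enzyme and lie head to head: their annotated start sites are 301 bases apart on chromosome 6 of the rat assembly GRCr8, on opposite strands. The windows cover 250 bases before and 50 after each start (RefSeq sequences). They share the 200 bases at chr6:31907551-31907750, shown in capitals and read from opposite strands.
Hadha, chr6:31907551-31907850, plus strand: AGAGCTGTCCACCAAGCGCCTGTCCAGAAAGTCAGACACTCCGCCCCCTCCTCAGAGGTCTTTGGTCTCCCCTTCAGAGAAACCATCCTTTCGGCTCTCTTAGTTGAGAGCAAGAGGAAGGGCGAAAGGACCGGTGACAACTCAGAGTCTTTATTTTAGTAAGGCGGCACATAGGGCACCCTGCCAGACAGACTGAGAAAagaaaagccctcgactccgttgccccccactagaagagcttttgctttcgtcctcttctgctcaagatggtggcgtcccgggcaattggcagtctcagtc
Hadhb, chr6:31907451-31907750, minus strand: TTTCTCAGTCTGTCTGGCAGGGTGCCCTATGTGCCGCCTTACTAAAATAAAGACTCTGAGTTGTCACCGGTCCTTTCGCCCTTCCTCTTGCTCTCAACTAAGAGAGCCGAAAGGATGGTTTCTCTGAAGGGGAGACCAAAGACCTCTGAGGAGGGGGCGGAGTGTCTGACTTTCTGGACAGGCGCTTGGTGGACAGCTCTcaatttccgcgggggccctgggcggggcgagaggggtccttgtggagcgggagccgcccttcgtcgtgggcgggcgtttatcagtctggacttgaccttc

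Hadh, the dehydrogenase for medium and short hydroxyacyl chains, had 9.44, 9.49 and 9.43 at day 3, against 8.98, 8.59 and 9.20 at day 1. It rose 1.44-fold, by 0.53 ± 0.166 (SE; limma adjusted p = 0.0487), just inside the threshold. When day 3 rat 6, 4 or 7 was left out, Hadh had adjusted p = 0.122, 0.132 or 0.123, and 0.104 or 0.0729 when day 1 rat 1 or 2 was. Echs1, the short-chain enoyl-CoA hydratase, had 10.56, 10.21 and 10.49 at day 3, against 9.83, 9.46 and 10.30 at day 1. Day 1 rat 3 overlapped the day 3 rats, and the change of 0.56 had limma adjusted p = 0.0991. Without day 1 rat 3 it was 0.78 with adjusted p = 0.0107. Echs1 passed in none of the other fits that left out 1 rat (highest limma adjusted p = 0.246). Acaa2, a mitochondrial thiolase, had a change of -0.12 (adjusted p = 0.674).

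Both measured enzymes of ketone body metabolism changed, in opposite directions, where 31.9% of all probes changed. Acat1, the mitochondrial acetoacetyl-CoA thiolase, which also acts in isoleucine breakdown, had 7.97, 8.09 and 8.21 at day 3, against 7.64, 7.02 and 7.53 at day 1. It rose 1.62-fold, by 0.69 ± 0.182 (SE; limma adjusted p = 0.027), and leaving out day 3 rat 6, 4 or 7 gave adjusted p = 0.0626, 0.0786 or 0.0973. Bdh1, which interconverts hydroxybutyrate and acetoacetate, had 8.51, 8.41 and 8.25 at day 3, against 9.19, 9.45 and 9.0 at day 1. Every day 3 rat lay below every day 1 rat. Bdh1 fell 1.76-fold, with a change of -0.82 ± 0.15 (SE; limma adjusted p = 0.00795), and its highest adjusted p without any 1 rat was 0.038.

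**Figure D2:**
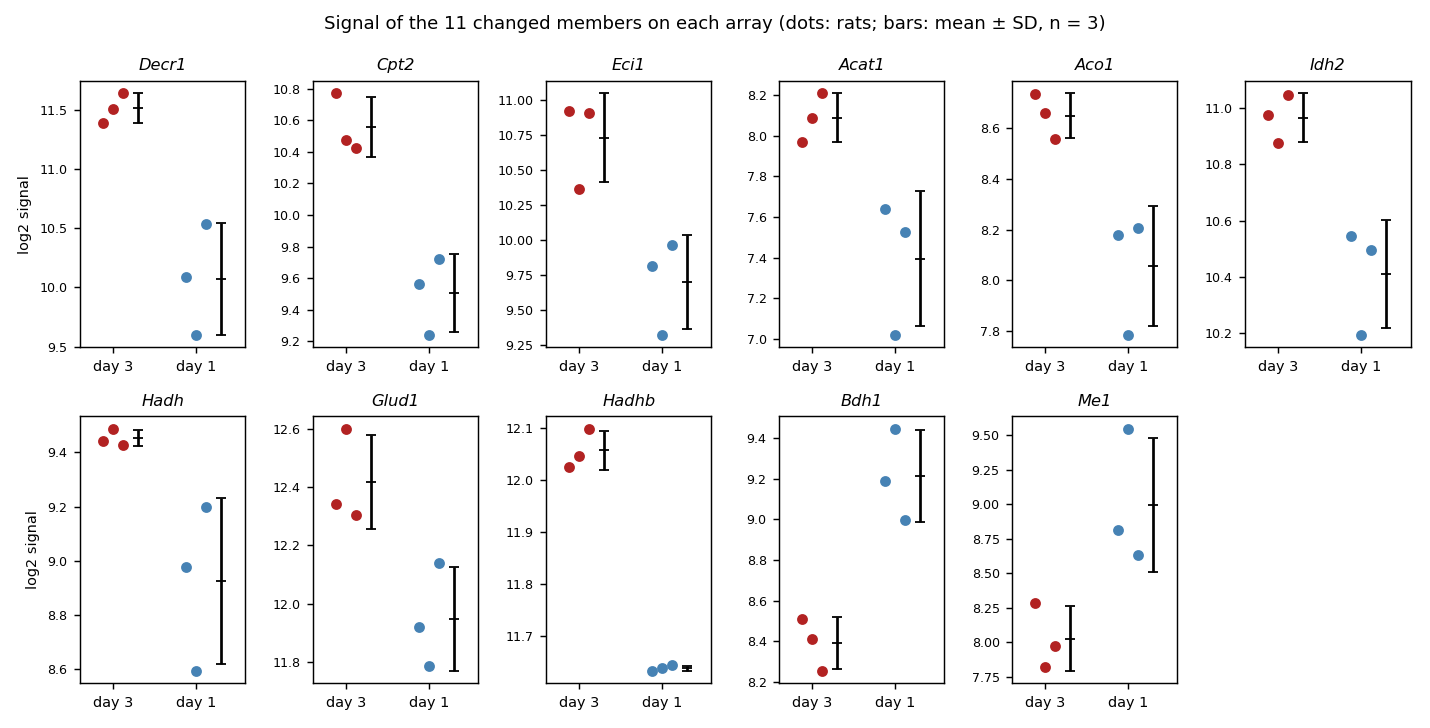
Log2 signal (y axis, a separate range for each gene) of the 11 changed members in the 3 rats of day 3 and the 3 rats of day 1; dots are rats and bars give the mean ± SD. The days do not overlap for any of the 11 genes; Hadhb spans 11.63 to 11.64 at day 1, and Decr1 spans 9.60 to 10.54.

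Of 10 TCA cycle genes tested, 0 passed the test in limma, where 31.9% of all probes passed. An unadjusted p under 0.05 was seen for 2 of the 10, Dld and Ogdh, against 43.5% of all probes. The median change of the 10 genes was 0.05, with 5 positive and 5 negative changes. Array weights called 3 of the 10, and the muscle covariate, no background correction, no filter and the fits without the high-muscle arrays, without day 1 rat 3 and without day 3 rat 7 called 1 each. Cs, citrate synthase, which opens the cycle, had a change of -0.08 (95% interval -0.36 to 0.20; limma adjusted p = 0.631). The subunits of the NAD-dependent isocitrate dehydrogenase had changes of -0.25 (Idh3a), 0.12 (Idh3b) and -0.02 (Idh3g). Idh3a was dim, between 6.63 and 7.26.

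The genes of the oxoglutarate dehydrogenase complex had changes of both signs. Ogdh, its first enzyme, had 11.90, 12.02 and 12.16 at day 3, against 11.78, 11.54 and 11.54 at day 1. The days did not overlap, and the change of 0.40 (95% interval 0.10 to 0.71) missed the threshold narrowly (limma adjusted p = 0.0507). Ogdh passed in 4 of the 15 alternatives, among them array weights (0.0309) and the muscle covariate (0.036). It passed in 0 of the 6 fits that left out 1 rat (highest limma adjusted p = 0.169). With day 3 rat 6 and day 1 rat 3 both left out, its limma adjusted p was 0.0847. Dlst, the second enzyme, had a change of -0.17. Dld, the third, which the pyruvate dehydrogenase complex also uses, had 9.42, 9.66 and 10.07 at day 3, against 10.06, 10.23 and 10.34 at day 1. The change of Dld was -0.49 (95% interval -0.93 to -0.06; limma adjusted p = 0.0806), and day 3 rat 7 reached the level of day 1 rat 1. Among the succinyl-CoA ligase subunits, Suclg1 had a change of 0.41 (interval -0.05 to 0.86) and Sucla2 one of 0.26. With day 3 rat 6 and day 1 rat 3 both left out, Suclg1 had a change of 0.59 and adjusted p = 0.0324. Of the fits that left out 1 rat, Suclg1 passed only in that without day 1 rat 3 (highest limma adjusted p = 0.345). Mdh2, the mitochondrial malate dehydrogenase, had a change of 0.26 (adjusted p = 0.271).

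For pyruvate entry, 0 of 4 genes passed the test in limma, with 0 at an unadjusted p under 0.05, and their median change was 0.17. Of all probes, 31.9% passed and 43.5% had an unadjusted p under 0.05. Array weights and the fit without day 1 rat 3 called 1 of the 4, Pc. Pc, pyruvate carboxylase, which makes oxaloacetate, had 7.75, 7.68 and 7.89 at day 3, against 7.39, 6.74 and 7.73 at day 1. Day 1 rat 3 overlapped the day 3 values, and the change of 0.49 had limma adjusted p = 0.169. Without day 1 rat 3 it was 0.71 with adjusted p = 0.0289. Pc passed in none of the other fits that left out 1 rat (highest limma adjusted p = 0.352). Of the pyruvate dehydrogenase complex, Pdhb had a change of 0.18 and Dlat one of 0.15. Pdhx, its binding protein, had 10.55, 10.52 and 10.52 at day 3, against 10.41, 10.06 and 10.75 at day 1. The day 3 values of Pdhx lay within the day 1 range, and its change was 0.12 (95% interval -0.30 to 0.55).

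Of the 6 genes of cytosolic or linked dehydrogenases and aconitase, 3 rose and 1 fell. Of all probes, 16.7% rose and 15.2% fell. Idh2, the mitochondrial NADP-dependent isocitrate dehydrogenase, had 10.98, 10.88 and 11.05 at day 3, against 10.54, 10.19 and 10.49 at day 1 on the brighter of its probes. It rose 1.47-fold, by 0.56 ± 0.134 (SE; limma adjusted p = 0.0201), while the second Idh2 probe lay at 6.11 to 6.41 on all arrays, below the array median, and was not tested. Aco1, the cytosolic aconitase, which binds iron-responsive RNA elements when it lacks its iron-sulphur cluster, had 8.73, 8.66 and 8.56 at day 3, against 8.18, 7.78 and 8.21 at day 1. Aco1 rose 1.51-fold (change 0.60 ± 0.147 SE; limma adjusted p = 0.0221), with day 1 rat 2 the lowest of the 6 arrays. Glud1, glutamate dehydrogenase, which feeds glutamate carbon into the cycle, had 12.34, 12.60 and 12.30 at day 3, against 11.92, 11.79 and 12.14 at day 1. Glud1 rose 1.38-fold (change 0.47 ± 0.143 SE; limma adjusted p = 0.0452). Leaving out day 3 rat 6, 4 or 7 gave Idh2 adjusted p = 0.0679, 0.0512 or 0.0796 and Aco1 0.0797, 0.0723 or 0.0581. For Glud1 the values were 0.0949, 0.152 and 0.0862, and 0.117 or 0.104 when day 1 rat 1 or 2 was left out.

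Me1, the cytosolic malic enzyme, which makes NADPH for lipid synthesis, had 8.28, 7.82 and 7.98 at day 3, against 8.81, 9.55 and 8.63 at day 1. Every day 3 rat lay below every day 1 rat, and day 1 rat 2 was the highest. Me1 fell 1.96-fold (change -0.97 ± 0.255 SE; limma adjusted p = 0.0271), and leaving out day 3 rat 6, 4 or 7 or day 1 rat 1 gave adjusted p = 0.0519, 0.0888, 0.0882 or 0.0594. Mdh1, the cytosolic malate dehydrogenase, had 11.63, 11.34 and 11.75 at day 3, against 11.24, 10.58 and 11.33 at day 1. The lowest day 3 value lay just above the highest day 1 value, and the change of 0.53 had a 95% interval of -0.002 to 1.06 (limma adjusted p = 0.116). Idh1, the cytosolic NADP-dependent isocitrate dehydrogenase, had a change of 0.27 (adjusted p = 0.264). Ucp2, a mitochondrial carrier of the uncoupling family, had 11.77, 11.84 and 11.90 at day 3, against 11.82, 11.72 and 11.68 at day 1 (change 0.10, interval -0.15 to 0.35). Its groups overlapped, and its spread was small.

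**Figure D3:**
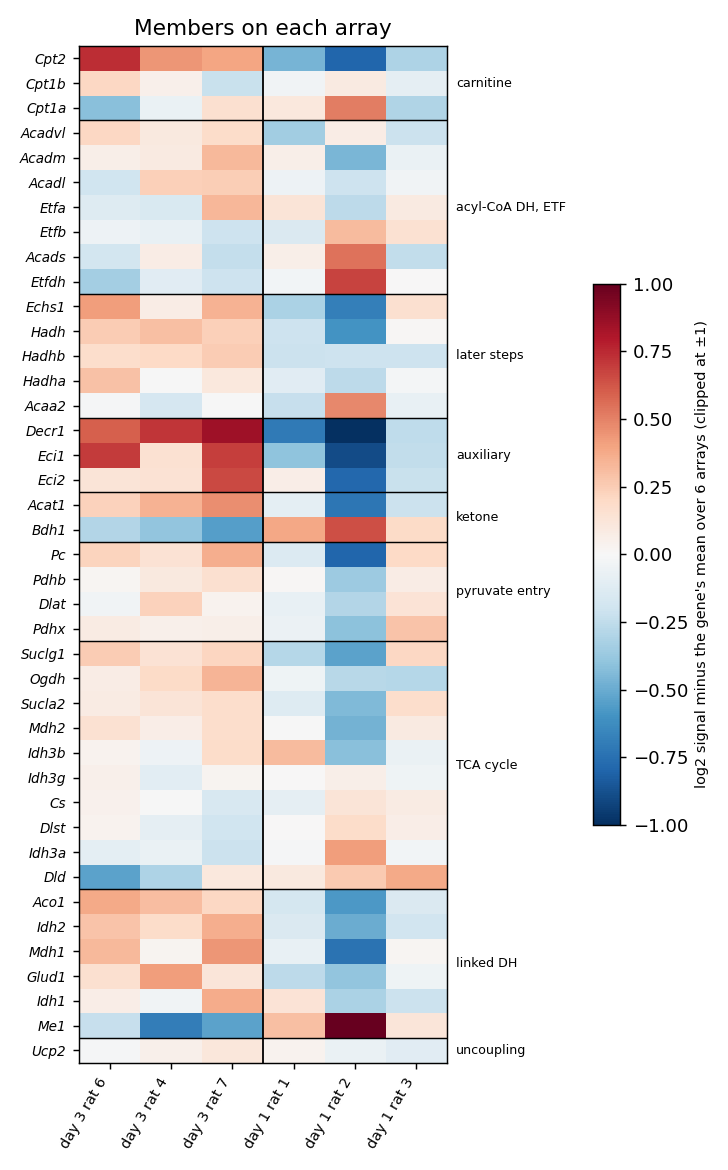
Log2 signal of each of the 41 members minus its mean over the 6 arrays (colour, red above and blue below, clipped at 1 in both directions), with the day 3 arrays left of the day 1 arrays and genes grouped by role. The column of day 1 rat 2 carries the deepest colours, blue for Decr1, Eci1 and Cpt2 and red for Me1, Bdh1 and Etfdh.

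The day 1 rats were not alike. For 35 of the 41 members (85.4%), day 1 rat 2 lay farthest from the day 3 mean among the day 1 rats, and it did so for 60.6% of all probes tested. It did so for 10 of the 11 changed members. The SD was smaller at day 3 for 33 of 41 members (80.5%), and for 72.6% of all probes. The median SD of a member was 0.12 at day 3 and 0.25 at day 1.

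Markers of several cell types moved with the days, and in this bulk tissue fewer cells of a type and less RNA per cell cannot be told apart. Of 11 fibroblast markers tested, 11 rose, and their summed intensity, in deposited units, was 158560 to 175830 at day 3 and 18401 to 58459 at day 1, lowest in day 1 rat 2. Of 12 neutrophil markers tested, 10 fell and 1 rose, and the summed intensity of all 17 with a probe was 34811 to 39488 at day 3 and 64921 to 79914 at day 1. Ltf, Ngp, Ctsg, Fpr1 and S100a9 lay at or below the array median on all 6 arrays. Macrophage markers (6 higher and 2 lower of 10 tested; 42509 to 65928 at day 3, 25541 to 35900 at day 1) and endothelial markers (5 of 6 higher; 10258 to 12481 at day 3, 3112 to 6029 at day 1) were also apart, with Marco and Cdh5 at or below the array median throughout. Of 10 adipocyte markers tested, 1 rose (Lipe, by 1.03) and 2 fell (Dgat2 and Cidea, with changes of -2.08 and -0.89). Their summed intensity overlapped, with 42088 to 65724 at day 3 and 43466 to 59610 at day 1, and Lep lay at or below the median. Since these marker sums other than the adipocyte sum separate the days completely, the part of cell make-up in the members' changes and that of time cannot be told apart.

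Skeletal muscle is rich in these enzymes, and 1 array of each day carried high muscle signal. The summed intensity of 19 muscle markers came to 36295 on the array of day 3 rat 6 and 42171 on that of day 1 rat 3, with 5117 to 8160 on the other 4 arrays, with Myh2, Myh4 and Tnni1 at or below the array median throughout. Pdhx was the only 1 of the 41 members for which both these arrays lay above the other 4. A member whose days do not overlap cannot show this order, which applies to 19 of the 41, among them all 11 changed members. Within each day, Cpt2, Eci1 and Aco1 were highest on these arrays, and the other changed members were not. Without both arrays, 10 of the 11 changed members still passed the test, Hadhb being the exception (change 0.44, adjusted p = 0.0511), and Echs1 and Suclg1 passed in addition. With the muscle marker level as a covariate all 11 passed, and no member's change moved by more than 0.05. With 1 high-muscle array in each day, that level differed little between the days, so fitting it could hardly move a change. The part of muscle in a member's signal was not tested by it.

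**Figure D4:**
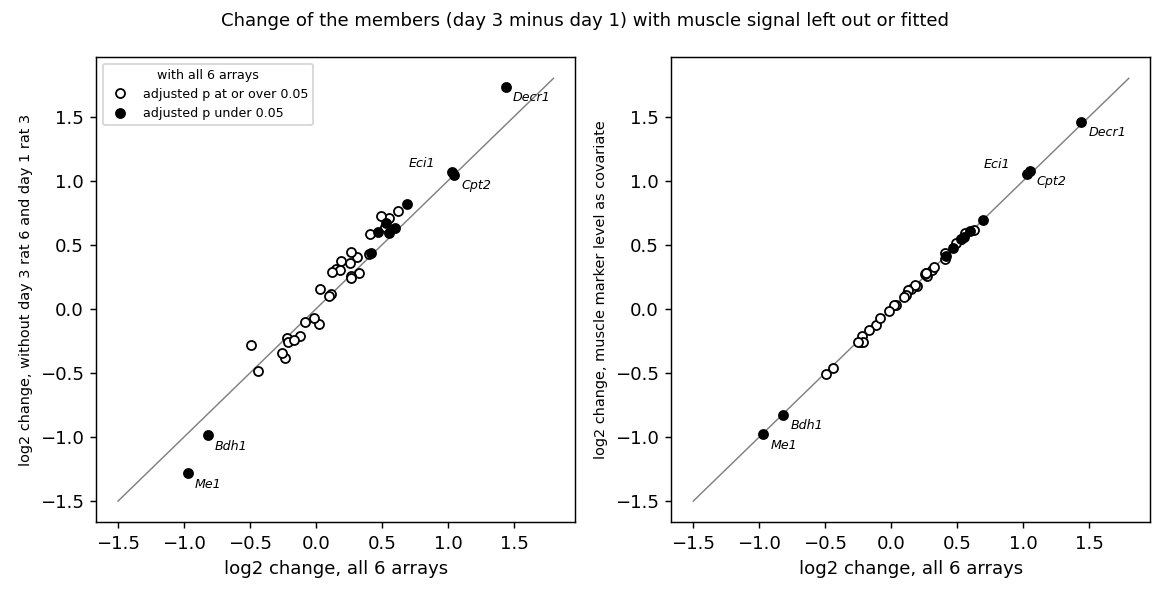
Log2 change (day 3 minus day 1) of the 41 members with day 3 rat 6 and day 1 rat 3 left out (left) or with the mean muscle marker signal as a covariate (right), against the change over all 6 arrays (x axis); the grey line marks equal values. Points lie near the line, with Decr1 at 1.73 and Me1 at -1.28 without the high-muscle arrays.

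Other genes of these pathways were described from 8 lists of 115 genes, of which 77 had a tested probe; 16 rose (20.8%, where 16.7% of all probes rose) and 13 fell (16.9%, where 15.2% of all probes fell). Of the 16, 7, 8 and 9 still passed when day 3 rat 6, 4 or 7 was left out, and 8, 10 and 15 when day 1 rat 1, 2 or 3 was; of the 13, the numbers were 7, 8 and 7, and 7, 10 and 12. Among succinate dehydrogenase, transaminase and malic enzyme genes, 1 of 7 changed: Me2, the mitochondrial malic enzyme, had 10.26, 10.51 and 10.49 at day 3, against 11.86, 12.12 and 11.51 at day 1 (change -1.41, limma adjusted p = 0.00223). Sdha, Sdhb, Sdhc and Sdhd, the succinate dehydrogenase subunits, had changes between -0.23 and 0.20, none past the test. Me2 and Me1, which act in different compartments, were thus both lower at day 3.

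Around pyruvate, 2 of 8 genes rose and 2 fell, where 16.7% of all probes rose and 15.2% fell. Pck2, the mitochondrial enzyme that makes phosphoenolpyruvate from oxaloacetate, had 10.16, 10.07 and 10.05 at day 3, against 8.14, 8.25 and 8.20 at day 1 (change 1.90 ± 0.104 SE; limma adjusted p = 0.000248). Pdk1, a kinase that inhibits pyruvate dehydrogenase and is known to be induced by hypoxia, had 11.08, 11.64 and 11.10 at day 3, against 12.81, 13.09 and 12.23 at day 1 (change -1.44, limma adjusted p = 0.00723). The kinase genes did not share a direction: Pdk3 also fell (change -1.17, limma adjusted p = 0.022), while Pdk2 rose (change 0.73, limma adjusted p = 0.0219). Both passed in 2 of the 6 fits that left out 1 rat, with highest adjusted p of 0.0803 for Pdk3 and 0.0746 for Pdk2.

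Of 14 genes of fatty acid uptake, activation and the carnitine shuttle, 3 rose and 2 fell, where 16.7% of all probes rose and 15.2% fell. Slc27a4, a fatty acid transport protein, had 9.53, 9.91 and 9.45 at day 3, against 10.94, 11.84 and 10.64 at day 1 (change -1.51, limma adjusted p = 0.0117). Acsl3, a long-chain acyl-CoA synthetase, rose by 1.15 (limma adjusted p = 0.00382). Slc25a20, the carnitine carrier between the Cpt1 and Cpt2 steps, had a change of -0.07 (adjusted p = 0.794). Peroxisomal beta-oxidation had 12 genes tested, of which 4 rose and none fell (median change 0.51). Of all probes, 16.7% rose and 15.2% fell (median change -0.05). Abcd3, a transporter of the peroxisomal membrane, rose by 1.14 (limma adjusted p = 0.00985). Ech1, a dienoyl-CoA isomerase of unsaturated chains found in mitochondria and peroxisomes, had 11.59, 11.41 and 11.73 at day 3, against 10.54, 10.38 and 10.66 at day 1 (change 1.05, limma adjusted p = 0.00245).

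Other mitochondrial acyl-CoA enzymes had 3 higher and 2 lower of 13, where 16.7% of all probes rose and 15.2% fell. Acad11, an acyl-CoA dehydrogenase, fell by 1.65 (limma adjusted p = 0.00397). Ivd, of leucine breakdown, rose by 1.10 at the edge of the threshold (limma adjusted p = 0.0493), and passed in none of the fits without day 3 rat 6, 4 or 7 or day 1 rat 1 or 2 (adjusted p = 0.156, 0.0827, 0.107, 0.133 and 0.107). In the list headed ketogenesis 2 of 3 rose, but neither is an enzyme that makes ketone bodies in mitochondria. Acat2 is the cytosolic thiolase known for sterol synthesis, with a change of 0.60, and its limma adjusted p of 0.0195 became 0.0687, 0.0512, 0.0744 or 0.0631 when day 3 rat 6, 4 or 7 or day 1 rat 1 was left out. Bdh2 is a cytosolic dehydrogenase, whose day 1 signal was at or below the array median on all 3 arrays. Its signal was at least 1.55-fold higher at day 3, taking for each day 1 array its median or the signal of Bdh2, whichever was higher (limma adjusted p = 0.00503).

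Among mitochondrial carriers, 1 of 7 rose and 1 fell, where 16.7% of all probes rose and 15.2% fell. Slc25a4, the adenine nucleotide carrier abundant in muscle, had 13.61, 13.48 and 13.38 at day 3, against 11.92, 11.17 and 12.82 at day 1 (change 1.52, limma adjusted p = 0.0223). Slc25a4 was highest among the day 3 rats in rat 6 and among the day 1 rats in rat 3, the arrays with high muscle signal, and leaving out day 3 rat 6, 4 or 7 or day 1 rat 1 gave it adjusted p = 0.0777, 0.0623, 0.0647 or 0.074. Slc25a11, the oxoglutarate and malate carrier, fell by 0.47 (limma adjusted p = 0.0275, and 0.101, 0.0748, 0.0799 or 0.0529 when day 3 rat 4 or 7 or day 1 rat 1 or 2 was left out). Of 13 genes in the list of regulators, which includes the enzyme gene Acod1, 1 rose and 5 fell (median change -0.43). Of all probes, 16.7% rose and 15.2% fell (median change -0.05). Acod1, which draws an intermediate off the cycle to make itaconate in activated macrophages, had 8.71, 9.20 and 9.14 at day 3, against 12.01, 11.81 and 11.67 at day 1 (change -2.81, limma adjusted p = 0.000284). Ppard, a nuclear receptor for fatty acids, fell by 0.92 (limma adjusted p = 0.00545). The other 3 that fell were Prkaa1, a catalytic subunit of the energy-sensing kinase AMPK, and Nrf1 and Gabpa, which encode factors whose elements were searched for in the promoters. Their changes were -0.79 for Prkaa1 (limma adjusted p = 0.0264), -0.75 for Gabpa (0.0176) and -0.85 for Nrf1 (0.0489), which lay at the edge of the threshold. Nrf1 had 6.50, 6.92 and 6.61 at day 3, against 7.19, 8.13 and 7.25 at day 1, with day 1 rat 2 far above the other 5 arrays. Pprc1, a coactivator of the Ppargc1a family, rose by 0.47 (limma adjusted p = 0.0295). Of the 6 fits that left out 1 rat, Gabpa passed in 4, Prkaa1 and Nrf1 in 2 and Pprc1 in 1, with highest adjusted p of 0.0688, 0.0939, 0.149 and 0.107.

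**Figure D5:**
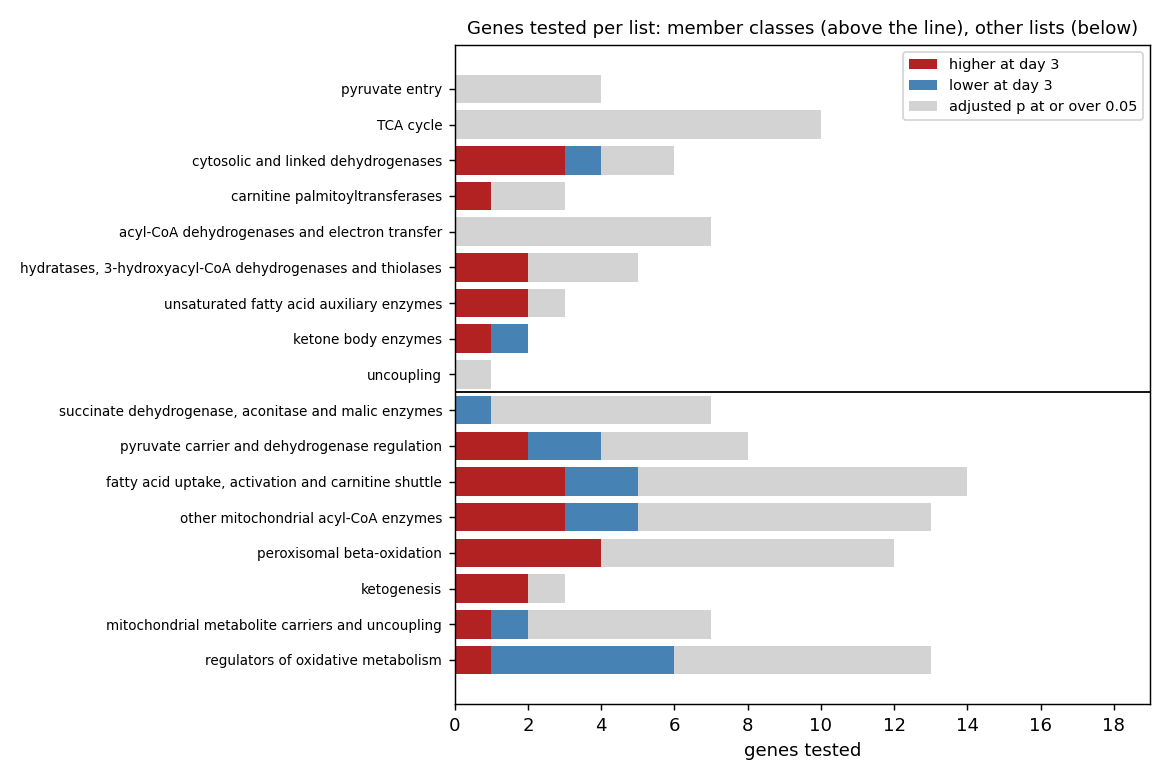
Number of genes tested (x axis) in each of the 9 role classes of the members (above the line) and the 8 other lists (below it), split into higher at day 3, lower at day 3 and adjusted p at or over 0.05. The bars of the TCA cycle (10 genes), the acyl-CoA dehydrogenases with electron transfer (7) and pyruvate entry (4) are wholly grey, and the regulators have the most genes lower at day 3, with 5.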

How the data were processed

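Per the labels' protocols, total RNA of 6 implants was DNase treated, and 100 ng was amplified and biotinylated. The authors deposited linear intensity values of 22517 probes. Limma, without a version, is in the submitters' processing notes. They were already quantile normalized by the authors, since sorted columns differ by at most 0.0399%; any background correction by them is not stated in these sources. A second table, before normalization, has 12 columns of per-sample values whose headers match no label and was not used, so no detection p-value entered.

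Normexp with offset 50 (limma 3.58.1, R 4.3.3) preceded log2, with no further normalization. Probes over the median of the array in 3 or more arrays were kept (11591) and tested with lmFit and eBayes, with Benjamini-Hochberg adjustment. The offset understates changes of dim probes. The fit was tested on simulated data.

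Probe names came from the platform annotation: 13787 probes have 1 symbol, 0 several and 8730 none. Through Entrez identifiers 13747 matched GRCr8 and 40 did not, and 0 symbols changed. The brightest kept probe stands for a gene. Members, lists, named-gene rule (changed members, members that order arrays as muscle markers do, the member with the smallest adjusted p among the others of each class, and the 2 called genes with the largest absolute change of each other list) and tests were chosen with earlier results of these data known. Other members are named so that all are accounted for, and genes outside the members and this rule were chosen after their values were seen. Files name no slide or scan.

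Alternatives were no background correction, offset 16, no filter, signal over the median in all 6 arrays, array weights, trend with robust fitting, cyclic loess, a muscle covariate, both high-muscle arrays left out, and each rat left out.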

Additional observations from a re-analysis of the deposited data

How the results depend on the processing

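Array weights gave 6123 changed probes in place of 3694, 15 higher members in place of 9 and 26 higher genes of the other lists in place of 16. The weights were 4.57 for day 1 rat 1, against 0.29 and 0.34 for day 1 rats 2 and 3. In every call made with array weights, the day 1 mean thus rested mostly on 1 rat. Leaving out 1 rat gave 2016 to 4902 changed probes, 2 to 12 higher members and 1 to 2 lower members. In the other lists it gave 7 to 22 higher and 7 to 14 lower genes. The lowest counts of changed probes were 2016, 2093 and 2427 without day 3 rats 6, 7 and 4, and 2338 when day 1 rat 1 was left out. Higher members numbered 2, 2 and 3 without day 3 rats 6, 7 and 4, and 6 without day 1 rat 1; of Bdh1 and Me1, Me1 was lost without day 3 rat 6, 4 or 7 or day 1 rat 1, and Dld was called without day 3 rat 7. Among the 11 changed members, Decr1, Cpt2 and Bdh1 passed in all 15 alternatives. Over the 20 members named by rule, 250 of 300 values kept direction and side of the threshold, 37 lost and 12 gained it, and 1 turned: Pdhx, whose change ran from -0.049 (without day 1 rat 2) to 0.30 over the rats left out. Fits with rats left out also held fewer samples, and the cause of these shifts was not tested. Of members outside that group, Etfa, Cpt1b, Acaa2, Idh3b and Idh3g also changed sign when 1 rat was left out, within -0.26 to 0.30. Any probe of a gene gave 9 and 2. Signal over background limits Cpt1b, Idh3a and Etfb, which lay near the array median. No paired analysis was possible because the rats of the 2 days carry different numbers.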
